A study of Homo sapiens with 8 samples.

Results

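The peak maps of BRG1 and of Flag-tagged actin were compared in HCT-116 cells that lack SETD3. HCT-116 is a human colorectal carcinoma line. The comparison used 4 CUT&RUN libraries, BRG1 KO1 and KO2 against Flag-actin KO1 and KO2. Members were all peaks on chromosomes 1 to 22 and X that did not overlap, by 1 bp or more, a peak of either IgG list. They numbered 50138 of the 263613 peaks in the 8 lists of the series. BRG1 KO1 had 6789 of them, BRG1 KO2 had 12782, Flag-actin KO1 had 12105 and Flag-actin KO2 had 18462. The labels give the genotype of these 4 libraries as SETD3 KO and name no further treatment. Whether KO1 and KO2 came from different clones or cultures is not in the labels, so the spread between them may be technical. Nor do the labels say whether the same KO cells served both antibodies. A difference between antibodies thus cannot be told apart from one between cells. Each antibody also had 1 library of control cells, shown here for reference. The 2 IgG libraries, 1 for each arm, were also of control cells, and the one of the Flag arm carries the word Empty in its title. No IgG library of SETD3 KO cells was analysed here. The control lists held 59056 peaks after the same removal.

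In CUT&RUN an antibody tethers a nuclease to the chromatin that holds its target, and the short fragments it cuts free are sequenced. BRG1, the product of SMARCA4, is the ATPase of SWI/SNF remodellers, which slide and evict nucleosomes at promoters and enhancers. Beta-actin, encoded by ACTB, is a cytoskeletal protein that also serves as a stable subunit of SWI/SNF and INO80 family remodellers. SETD3 is the enzyme that methylates a histidine of actin.

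The lists were of unequal length, and many deposited peaks lay at IgG sites. Removal of IgG sites took 71.3% and 59.9% of the BRG1 KO1 and KO2 peaks, and 55.3% and 48.3% of the Flag-actin KO1 and KO2 peaks. The remaining BRG1 peaks covered 0.794 and 1.68 Mb, and the remaining Flag-actin peaks 1.23 and 2.75 Mb. Read totals were not analysed here, so depth is unknown. The weakest peaks rested on a maximum of 4 signal steps in the BRG1 lists and 3 in the Flag-actin lists, a step being the smallest unit in which a library's maximum signal changed. A numeric SEACR threshold keeps a set fraction of signal blocks, so the number of peaks is no measure of binding. At most 4 rows of any pair of these lists shared position and total signal. Peaks over SETD3 numbered 4, 5, 0 and 3 in BRG1 KO1, BRG1 KO2, Flag-actin KO1 and Flag-actin KO2, and such peaks do not test the knockout.

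The promoters below held a peak of one antibody in both its libraries and no peak of the other. The KO1 and KO2 peaks only had to lie in the same promoter window, and at LIMA1 they did not overlap. A promoter window was the 300 bases from 250 before to 50 after a RefSeq transcription start, and 22132 windows of 15812 protein-coding genes were searched on both strands for CCAAT, the core of the CCAAT box bound by NF-Y. The first set holds the 5 genes of highest mean signal rank, whether or not they held the motif, among promoters with a peak in both BRG1 libraries and in neither Flag-actin library. Each line gives the 120 bases before the start, 5′ to 3′ on the strand of the gene, from RefSeq on GRCh38.p14. Capitals mark CCAAT or its reverse complement ATTGG.
RTN4 (chr2:55050599-55050718, minus strand): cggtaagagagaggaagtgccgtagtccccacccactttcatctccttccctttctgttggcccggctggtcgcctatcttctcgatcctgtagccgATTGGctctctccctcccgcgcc
DOP1B (chr21:36156704-36156823, plus strand): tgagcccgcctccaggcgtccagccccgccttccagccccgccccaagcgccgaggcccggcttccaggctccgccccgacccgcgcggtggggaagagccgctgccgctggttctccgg
LIMA1 (chr12:50202174-50202293, minus strand): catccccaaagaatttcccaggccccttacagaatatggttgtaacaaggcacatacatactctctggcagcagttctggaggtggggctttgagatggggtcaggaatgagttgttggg
AP2A1 (chr19:49766881-49767000, plus strand): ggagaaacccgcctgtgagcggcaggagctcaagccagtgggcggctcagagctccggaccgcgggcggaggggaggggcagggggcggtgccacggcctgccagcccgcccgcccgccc
CTH (chr1:70411148-70411267, plus strand): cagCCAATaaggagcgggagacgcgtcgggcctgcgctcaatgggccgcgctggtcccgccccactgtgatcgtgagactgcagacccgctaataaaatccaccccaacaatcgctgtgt
In RTN4, which shapes the endoplasmic reticulum, the window belongs to a start inside the annotated gene. LIMA1 encodes a protein that bundles actin filaments, AP2A1 a subunit of the clathrin adaptor, and CTH cystathionine gamma-lyase, which makes cysteine. The motif began 23 bases before the RTN4 start and 117 before that of CTH. The printed bases of DOP1B, LIMA1 and AP2A1 held neither form. The full 300-base window of AP2A1 did hold the motif, and those of DOP1B and LIMA1 did not. These few promoters illustrate the windows and do not show the difference in motif share, which is given below over all windows with a peak.

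Only 4 promoters had the reverse pattern, a peak in both Flag-actin libraries and in neither BRG1 library. They are all shown.
NR5A1 (chr9:124507400-124507519, minus strand): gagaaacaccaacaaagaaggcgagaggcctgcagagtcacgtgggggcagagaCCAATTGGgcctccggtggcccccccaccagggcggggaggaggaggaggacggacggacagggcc
TMEM44 (chr3:194633420-194633539, minus strand): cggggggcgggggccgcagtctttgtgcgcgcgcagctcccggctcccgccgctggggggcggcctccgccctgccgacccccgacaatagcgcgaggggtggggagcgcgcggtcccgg
ACOT12 (chr5:81394135-81394254, minus strand): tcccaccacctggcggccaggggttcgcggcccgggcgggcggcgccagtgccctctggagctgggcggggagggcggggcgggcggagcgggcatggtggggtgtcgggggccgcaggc
AUTS2 (chr7:69598355-69598474, plus strand): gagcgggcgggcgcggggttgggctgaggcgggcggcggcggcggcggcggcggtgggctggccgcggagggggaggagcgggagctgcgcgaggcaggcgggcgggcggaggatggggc
NR5A1, a nuclear receptor of steroid-producing tissues, held CCAAT and ATTGG in overlap. The printed bases of TMEM44, ACOT12 and AUTS2 held neither.

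BRG1 peaks lay at promoters with a CCAAT box more often than Flag-actin peaks did. Of all promoter windows, 34.6% held the motif on either strand. Among windows with a peak the share was 57.1% in BRG1 KO1 (296 of 518, 95% interval 52.8 to 61.4) and 51.9% in BRG1 KO2 (846 of 1630, 49.4 to 54.4). In Flag-actin KO1 it was 35.2% (56 of 159, 27.8 to 43.2), and 27.7% in the KO2 library (94 of 339, 23.0 to 32.8). Both BRG1 libraries were above both Flag-actin libraries, both BRG1 intervals lay wholly above the share of all promoters, and that of Flag-actin KO2 lay wholly below it. Intervals here and below are exact Clopper-Pearson intervals and cover counting error only. They treat windows as independent, although overlapping windows can share a peak and a match, so they can be too narrow. Where they lie against the share of all promoters is thus a description and no test. The mean was 54.5% ± 3.71 (SD, n = 2) for BRG1 and 31.5% ± 5.30 (SD, n = 2) for Flag-actin, a difference of 23.0 percentage points (two-sided exact permutation p = 0.333). With 2 libraries against 2, 0.333 is the smallest p this test can give, so no comparison of these 4 libraries can pass a threshold of 0.05. In control cells the share was 44.3% for BRG1 and 29.1% for Flag-actin. In the IgG lists, from which no sites were removed, it was 29.0% and 38.1%. With IgG sites kept, the BRG1 KO shares were 54.2% and 50.9% and the Flag-actin KO shares 33.0% and 27.8%.

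**Figure D1:**
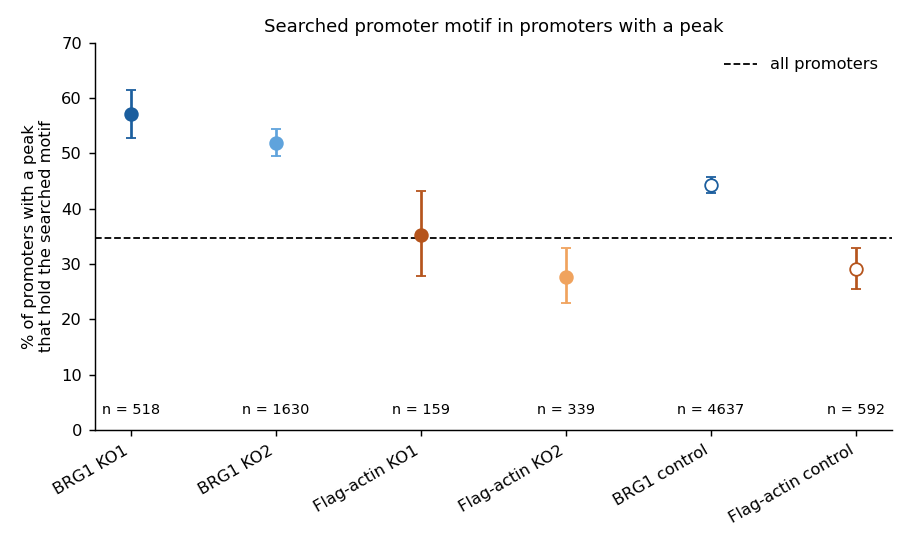
Share of promoter windows with a peak that hold the searched motif on either strand (y axis, %), by library (x axis), with the number of such windows. Bars are exact 95% intervals, filled points are SETD3 KO, open points control cells, and the dashed line is the share of all promoters, 34.6%. The BRG1 KO libraries sit at 57.1% and 51.9%, above the Flag-actin KO libraries at 35.2% and 27.7%.

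The base composition of the windows overlapped between the antibodies. Median G and C content of the windows with a peak was 65.7%, 66.3%, 66.0% and 67.7% in the order BRG1 KO1, BRG1 KO2, Flag-actin KO1 and Flag-actin KO2, against 62.3% for all windows. Among windows of 60 to 70% G and C alone, the motif share was 62.8% and 53.4% for BRG1 against 44.9% and 37.5% for Flag-actin, against 35.1% for all such windows. With 1 window per gene it was 57.7% and 53.8% against 36.2% and 30.9%. Windows of neighbouring genes that share a peak were kept in that count. TGANTCA, the AP-1 site, did not order the antibodies. The BRG1 windows held it in 6.37% and 5.34%, the Flag-actin windows in 8.18% and 5.90%, and all windows in 6.15%. The two-sided exact permutation p was 0.667.

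Promoters with BRG1 in both libraries and Flag-actin in neither numbered 176, from 158 genes, which is 0.795% of the 22132 windows. The 4 promoters of the reverse pattern are 0.0181%. Of the 176 windows, 115 held CCAAT (65.3%). The median position of its 247 matches was 109 bases before the start, against 96 before it over all windows. Windows on chromosome 8 were not analysed here, nor were distances to starts there. A match is a string in the window and does not show a bound factor.

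After removal of IgG sites, BRG1 peaks were concentrated at transcription starts, and Flag-actin peaks much less so. The starts used were 34961 RefSeq starts of any biotype, which include those of 15812 of the 19974 protein-coding genes. Peaks at the starts of the other genes can thus count as distant. The share of peaks within 1 kb of a start used was 12.5% and 19.1% for BRG1 KO1 and KO2, and 5.08% and 7.09% for Flag-actin KO1 and KO2. The means were 15.8% and 6.09%, with no overlap between the groups. In bins of 250 bp, the bin with most peak centres next to a start held 56.0 and 99.0 pairs of peak and start per 1000 BRG1 peaks, and 8.43 and 11.8 per 1000 Flag-actin peaks. Bins 4 to 5 kb away, the farthest counted, held 3.07, 3.09, 2.73 and 3.13 on average in the same library order. The 4 libraries were thus alike at 4 to 5 kb from starts and apart at them. Farther out they were not all alike. Peaks 10 to 100 kb from a start used made up 52.6% and 49.0% of the BRG1 lists. They made up 56.5% and 56.0% of the Flag-actin lists.

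**Figure D2:**
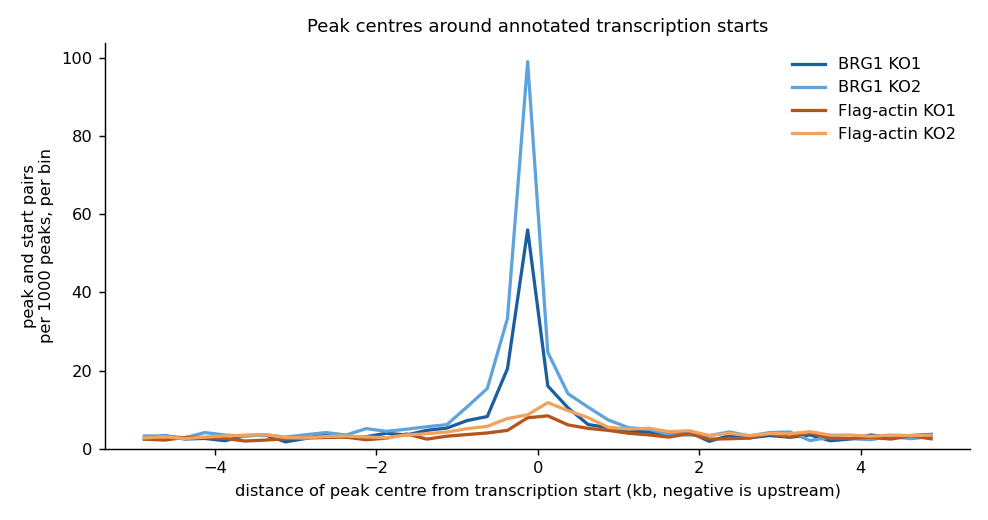
Pairs of peak centre and transcription start per 1000 peaks (y axis) in bins of 250 bp by distance from the start (x axis, kb, negative is upstream), 1 line for each KO library. The BRG1 lines reach 56.0 and 99.0 beside the start, the Flag-actin lines 8.43 and 11.8.

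The location of peaks relative to genes was measured first by gene ends, the 1 kb on either side of each annotated end of 19974 protein-coding genes. Gene-end peaks made up 11.5% of BRG1 KO1 (10.8 to 12.3), 18.2% of BRG1 KO2 (17.5 to 18.9), 6.26% of Flag-actin KO1 (5.84 to 6.71) and 8.46% of Flag-actin KO2 (8.06 to 8.87). Both BRG1 shares exceeded both Flag-actin shares, at 14.9% ± 4.72 against 7.36% ± 1.55 (SD, n = 2 each, two-sided exact permutation p = 0.333). The difference was 7.50 percentage points. The IgG lists had 3.88% and 3.26%. With IgG sites kept, the BRG1 shares were 5.62% and 9.19% and the Flag-actin shares 4.74% and 6.05%, so the groups overlapped and the difference fell to 2.01 points (p = 0.667, exact permutation). Peaks inside genes but away from their ends made up 47.8% and 44.5% of the BRG1 lists and 49.0% and 50.7% of the Flag-actin lists.

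Which end of the gene held the peak differed more. The 15812 genes with a strand in the promoter table have a start side and a far side. Of the end windows with a peak, the start side made up 85.1% in BRG1 KO1 and 86.8% in BRG1 KO2. It made up 61.6% in Flag-actin KO1 and 62.3% in the KO2 library. The values within an antibody lay close together, with means of 85.9% ± 1.17 and 61.9% ± 0.465 (SD, n = 2 each, two-sided exact permutation p = 0.333). The IgG lists, from which no sites were removed, had 52.8% and 51.1%, near an even split. With IgG sites kept, the BRG1 shares were 70.5% and 79.3% and the Flag-actin shares 58.1% and 59.2%. BRG1 KO2 had 1811 start windows and 276 far windows with a peak, and Flag-actin KO2 had 833 and 505. The larger Flag-actin list thus held fewer starts and more far ends.

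Flag-actin peaks lay near chromosome ends more often. The share within 5 Mb of the end of a chromosome was 8.04% and 9.59% in BRG1 KO1 and KO2, and 13.1% and 17.8% in Flag-actin KO1 and KO2. The groups did not overlap, with a BRG1 minus Flag-actin difference of -6.65 percentage points (two-sided exact permutation p = 0.333). The IgG lists had 10.6% and 8.53%, but no sites were removed from them. With IgG sites kept, the BRG1 shares were 8.11% and 8.84% and the Flag-actin shares 11.3% and 13.8%. On that footing Flag-actin KO1 was also close to the IgG list of its arm, 10.6%. The Flag-actin control had 30.5% and the BRG1 control 11.2%. Peak density relative to the whole list was 1.03 and 1.21 on chromosome 16 for BRG1 against 1.44 and 1.78 for Flag-actin, and on chromosome 22 it was 1.09 and 1.30 against 1.60 and 1.93. These were the 2 chromosomes with the lowest ratio of BRG1 to Flag-actin density. Of 23 chromosomes, 4 (9, 16, 20 and 22) were denser in both Flag-actin libraries. Another 5 (3, 4, 6, 8 and 12) were denser in both BRG1 libraries, and 14 overlapped. With 2 libraries against 2, a share of 0.333 would separate by label order alone, so the count is no result about the chromosomes.

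**Figure D3:**
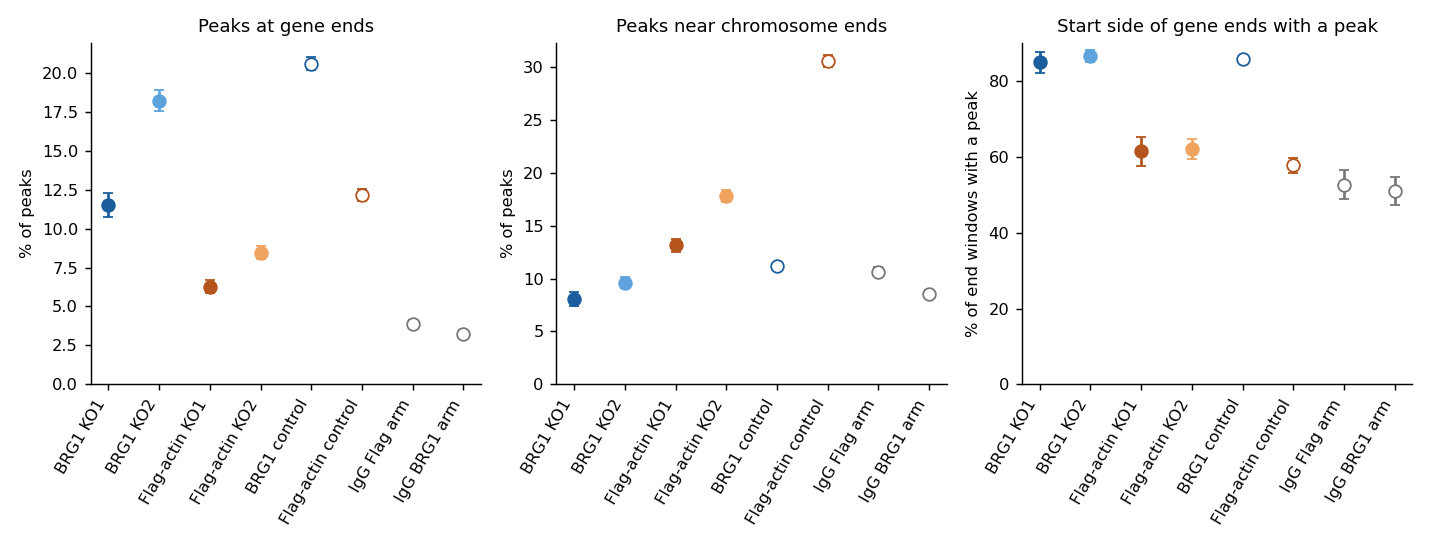
Share of peaks at gene ends (left, %), share of peaks near chromosome ends (middle, %) and share of end windows with a peak that are on the start side (right, %), by library. Filled points are SETD3 KO, open points control and IgG libraries, and bars exact 95% intervals. BRG1 KO libraries are higher at gene ends (11.5% and 18.2%) and on the start side, and lower near chromosome ends.

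Median peak width did not order the antibodies, while the narrowest peaks made up more of the BRG1 lists. Median width was 90 and 110 bp in BRG1 KO1 and KO2, and 90 and 140 bp in Flag-actin KO1 and KO2, a difference of -15 bp that was within the spread between libraries (two-sided exact permutation p = 1). Peaks of 50 bp or less made up 16.0% and 15.4% of the BRG1 lists, and 11.3% and 5.98% of the Flag-actin lists, a difference of 7.02 percentage points without overlap (two-sided exact permutation p = 0.333). With IgG sites kept, median widths were 40 and 40 bp for BRG1 against 50 and 90 bp for Flag-actin, a difference of -30 bp (p = 0.333, exact permutation).

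The BRG1 libraries shared more sites with each other than with the Flag-actin libraries. The Flag-actin libraries shared little with each other. Of the BRG1 KO1 peaks, 26.6% overlapped a BRG1 KO2 peak, and 14.2% of the BRG1 KO2 peaks overlapped one of KO1. Of the Flag-actin KO1 peaks 5.34% overlapped Flag-actin KO2, and 3.49% of the Flag-actin KO2 peaks overlapped KO1. Shares between antibodies ran from 1.10% to 3.60%, so the lower Flag-actin share, 3.49%, was below the highest share between antibodies, that of BRG1 KO2 peaks in Flag-actin KO2. As shared regions over all regions of a pair (the Jaccard index), the BRG1 pair had 9.99%, the Flag-actin pair 2.15% and the 4 mixed pairs 0.859%, 0.815%, 1.27% and 1.47%. The mean within antibodies exceeded the mean between them by 4.97 percentage points. The one-sided exact permutation p over the 3 ways to pair the lists was 0.333, the smallest it can be. With either BRG1 library left out, so that only the Flag-actin pair stood for one antibody, the difference was 0.780 or 1.32 points.

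**Figure D4:**
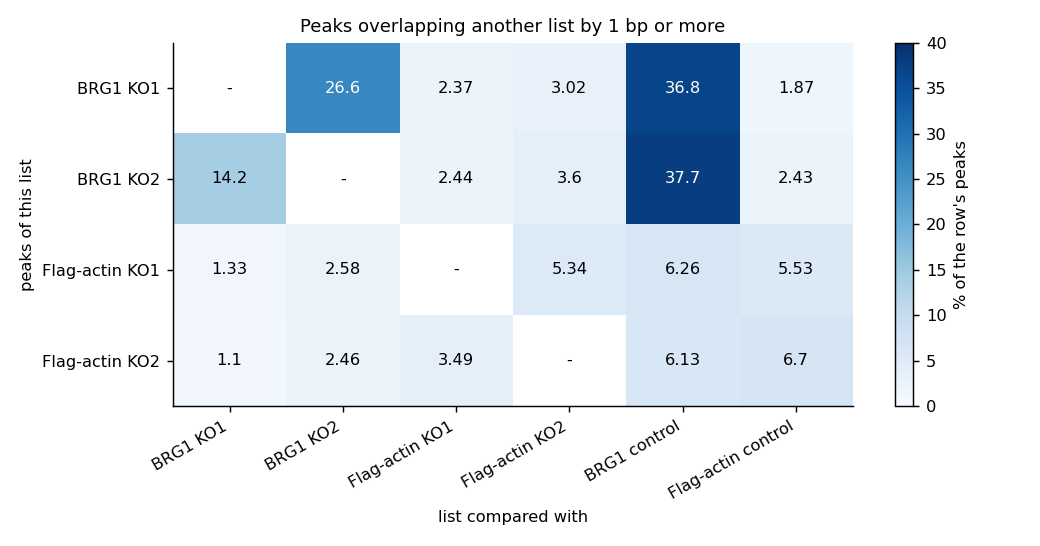
Share of the peaks of each KO list (rows) that overlap a peak of another list (columns) by 1 bp or more, in % (colour and number). The BRG1 lists overlap each other (26.6% and 14.2%) and the BRG1 control (36.8% and 37.7%), and no Flag-actin value exceeds 6.70%.

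The strongest peaks repeated best. Of the top 10% of peaks by total signal, 65.0% in BRG1 KO1 and 45.5% in BRG1 KO2 were found in the other BRG1 library, against 22.3% and 10.8% of the other 90%. For Flag-actin KO1 and KO2 the top 10% gave 16.7% and 11.1%, against 4.08% and 2.67%. In either list of the other antibody, the top 10% of the BRG1 lists gave 5.75% and 5.20%, against 4.42% and 5.05% of the other 90%. The top 10% of the Flag-actin lists gave 8.15% and 6.61% there, against 2.91% and 2.70%. Strong peaks were thus shared more often than weak ones within each antibody, and between antibodies in the Flag-actin lists. In the BRG1 lists the shares between antibodies differed little, and in BRG1 KO2 they were nearly equal. The top 10% were also wider, which makes an overlap of 1 bp easier. Their median widths were 200 and 240 bp for BRG1 and 100 and 170 bp for Flag-actin. Those of the other 90% were 90 and 110 bp, and 90 and 140 bp. The part of width in the sharing was not tested. In the control library of the same antibody the top 10% gave 78.5% and 83.1% for BRG1, against 15.5% and 17.6% for Flag-actin.

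Merging the 4 lists gave 46814 regions, and most were held by 1 list. There were 1642 regions with BRG1 in both libraries and Flag-actin in neither (3.51%), 484 with Flag-actin in both and BRG1 in neither (1.03%), and 23 in all 4 lists. The BRG1 regions had a median width of 220 bp, the Flag-actin regions 70 bp. Of the BRG1 regions 13.5% were at gene ends and 6.70% near chromosome ends, and of the Flag-actin regions 8.06% and 18.4%. The BRG1 control list held 73.4% of the BRG1 regions and the Flag-actin control list 0.974%. For the Flag-actin regions these shares were 34.1% and 46.5%, so many of them had a BRG1 peak in control cells.

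The strongest regions with BRG1 in both and Flag-actin in neither lay mostly inside genes. Ranks are percentiles of total signal within a list. The first was in TCF7L2, the transcription factor that carries beta-catenin to Wnt target genes, at chr10:113087141-113087690 (hg38), with ranks of 99.99 in KO1 and 100 in KO2. Others lay in ABCC3, an efflux pump of organic anions, in RTN4, in STN1, a subunit of the telomere-capping CST complex, in IGF1R, the receptor of insulin-like growth factor 1, and in SLC38A8 and SLC35F2. A further 3 lay outside protein-coding genes, and the nearest were TRIB1, SCG2 and TES. These 10 regions were 290 to 640 bp wide. All 10 were in the BRG1 control list and 0 in the Flag-actin control list.

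At gene ends the same ranking named regulators and enzymes of many kinds. COTL1, which binds actin filaments, had ranks of 99.34 in KO1 and 97.18 in KO2 on its start side. MYC, the growth-promoting transcription factor, had 96.19 and 99.78, with 2 peaks at its ends in KO1, 5 in KO2 and 0 in both Flag-actin libraries. RAB1A, which directs traffic from the endoplasmic reticulum to the Golgi, had 99.14 and 95.51. AP2A1 of the clathrin adaptor, CTH, the nucleoside diphosphate kinase NME1 (with the readthrough NME1-NME2), DOP1B, RELL1, SAP30BP and NCF1 completed the 10. NCF1, an NADPH oxidase subunit, has near-identical pseudogenes, so its reads may be misplaced. All 10 were in the BRG1 control list.

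The strongest regions with Flag-actin in both and BRG1 in neither were short, and several lay at actin-like sequence. The first was in POTEE, a gene whose product ends in an actin-like domain, at chr2:131263781-131264040, with ranks of 99.98 in KO1 and 99.99 in KO2. The region nearest to TP53BP2 overlapped the actin pseudogene ACTBP11, and that in the demethylase gene KDM4C overlapped the actin pseudogene ACTG1P14. The others lay in ZNF727, TCERG1L and TRPC4, at the start side of TBX4, and nearest to LAYN, ELFN2 and ANKRD7. Widths were 40 to 260 bp, with 4 of the 10 at 50 bp or less. All 10 were in the Flag-actin control list and 0 in the BRG1 control list. At gene ends the ranking named TBX4, CSH2, ACTG1, GP1BB, SBK2, ACTA1, NR5A1, TMEM44, ACOT12 and SSTR2, of which 7 were in the Flag-actin control list. The ACTG1 peak, at the far end of the gamma-actin gene, ranked 99.55 and 99.71.

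Over 56 actin genes, actin pseudogenes and POTE genes, Flag-actin signal stood apart from BRG1 signal. These loci were chosen by name after the values above were seen. Peaks were present at 1 and 5 of them in BRG1 KO1 and KO2, and at 18 and 17 in Flag-actin KO1 and KO2. They held 0.0135% and 0.0400% of the summed signal of the BRG1 lists, and 3.44% and 2.32% of that of the Flag-actin lists. Of the 484 Flag-actin regions 20 lay there, and of the 1642 BRG1 regions 1. The same count over all 46814 merged regions was not made. Among all peaks, 1 of 6789 in BRG1 KO1 and 5 of 12782 in BRG1 KO2 lay there. In Flag-actin KO1 and KO2 it was 29 of 12105 and 28 of 18462. ACTB itself had 5 peaks in each IgG list and so was mostly removed by the rule. Before removal it held 2.26% and 2.57% of the summed signal in Flag-actin KO1 and KO2, 0.00988% and 0.0102% in BRG1 KO1 and KO2, and 0.00391% and 0.0131% in the IgG lists of the Flag and BRG1 arms. Such loci are near-identical in sequence, and the sources used here do not say how reads that fit several of them were placed. The share of this signal that came from the Flag-actin construct was not tested.

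Sites in all 4 lists were few. The 23 regions had a median width of 90 bp, and 12 and 11 of them were in the BRG1 and Flag-actin control lists. The first was at chr1:16644226-16645205 over the transcribed pseudogene CROCCP2, with the protein-coding gene LOC124903857 nearest, and ranked 76.17 and 99.73 for BRG1 against 98.94 and 97.44 for Flag-actin. The next lay in HIVEP2, LOC105374298, GMEB1, PTPRA and MKLN1, and nearest to HNRNPD, CHST8, ZNF599 and ACVR2A. At gene ends only IQGAP1 and MCCC1 had such a region. At IQGAP1, a scaffold of the actin cortex, the peaks overlapping it ranked 18.69 and 48.16 for BRG1 against 99.83 and 99.89 for Flag-actin. MCCC1, an enzyme of leucine breakdown, ranked 73.44 and 96.91 for BRG1 but 13.15 and 17.97 for Flag-actin. The shared sites thus need not be strong in both maps.

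By gene, a gene-end peak was present at 858 and 2463 genes in BRG1 KO1 and KO2, and at 810 and 1662 in Flag-actin KO1 and KO2. The BRG1 libraries shared 370 genes, which is 43.1% of the KO1 genes, and 370 of the 2463 KO2 genes. The Flag-actin libraries shared 144, which is 17.8% of KO1 and 8.66% of KO2. Flag-actin KO2 shared more genes with BRG1 KO2, 270 (16.2%), than with Flag-actin KO1. The list of BRG1 KO2 was the longer, with 12.3% of all genes against 4.06% in Flag-actin KO1. Relative to these shares of all genes, the overlap with Flag-actin KO1 was the larger. A gene was called when both libraries of one antibody had such a peak and neither of the other did. The calls rest on presence alone, since a list holds no value where it has no peak, and no model across genes was fitted. BRG1 was called at 313 genes (1.57% of 19974) and Flag-actin at 103 (0.516%). The order turned when peaks anywhere over a gene and 1 kb around it were counted, with 541 genes for BRG1 and 962 for Flag-actin. At equal list length the Flag-actin count was 28 and the BRG1 count 235. At 222 of the 313 BRG1 genes (70.9%) the KO1 and KO2 peaks overlapped, and at 35 of the 103 Flag-actin genes (34.0%). The BRG1 control list held a gene-end peak at 267 of the 313 BRG1 genes (85.3%) and at 37 of the 103 Flag-actin genes (35.9%), against 31.1% of all genes. The Flag-actin control list held one at 43 of the 103 Flag-actin genes (41.7%) and at 45 of the 313 BRG1 genes (14.4%), against 14.7% of all genes. On the start side in both libraries were 211 of 252 BRG1 genes with a strand, and 31 of 72 Flag-actin genes. Genes with a gene-end peak in all 4 lists numbered 5, namely DENND3, IQGAP1, IZUMO4, MCCC1 and MYH9, the heavy chain of non-muscle myosin.

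Gene lists were described by the number of genes with a gene-end peak, given below in the order BRG1 KO1, BRG1 KO2, Flag-actin KO1 and Flag-actin KO2. Over all 19974 genes the mean share was 8.31% for BRG1 and 6.19% for Flag-actin. Of 19 lists, the BRG1 mean was higher in 14, the Flag-actin mean in 2, and they were equal in 3. The libraries of the antibodies did not overlap in 5 lists. With 2 libraries against 2, a share of up to 0.333 of the lists would separate by label order alone. The count of 5 is thus no result about these lists.

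The lists of p53 targets and of immediate early genes had the largest BRG1 minus Flag-actin differences of the 19. Of 26 p53 target genes, 6, 11, 2 and 1 had a gene-end peak, and RRM2B, a ribonucleotide reductase subunit, the DNA damage sensor XPC, the antiproliferative BTG2 and the kinase PLK3 were called for BRG1. RRM2B ranked 72.76 and 99.57. Of 25 immediate early and AP-1 genes, 5, 10, 0 and 2 had one, and MYC, the ERK inhibitor SPRY4, the phosphatase DUSP1 and FOSB were called. JUN and FOS had no peak in the 4 KO lists, and DUSP6 had 1, away from its ends, in Flag-actin KO2. Both lists were higher in each BRG1 library than in each Flag-actin library. Of 20 Wnt target genes, 2, 6, 0 and 3 had one, which overlapped, and MYC and AXIN2, a brake on Wnt signalling, were called.

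Adhesion and cytoskeleton lists were mixed. Of 37 integrin and focal adhesion genes, 6, 7, 0 and 2 had a gene-end peak, and CAV1 of caveolae, ITGB4, the integrin of hemidesmosomes, and VCL, which links integrins to actin, were called for BRG1. CAV1 ranked 96.85 and 87.18. Of 58 actins and actin regulators, 6, 18, 4 and 7 had one, and COTL1, CORO1C, RHOB and RDX were called for BRG1. Of 32 cell junction genes, 2, 6, 0 and 2 had one, and PERP was called. Of 16 SRF targets, 2, 4, 1 and 3 had one, and VCL was called. Of 42 extracellular matrix and laminin genes, 2, 2, 5 and 4 had one, so that this was the 1 list in which both Flag-actin libraries were above both BRG1 libraries. LAMA5, a laminin chain, was called for Flag-actin and ranked 96.94 and 33.18. CDH1, the epithelial cadherin, had a gene-end peak in BRG1 KO2 only among these libraries.

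Remodeller lists did not show a common pattern. Of 30 subunits of INO80, SRCAP and TIP60, 2, 5, 1 and 1 had a gene-end peak and none was called. Of 28 SWI/SNF subunits, 2, 4, 2 and 4 had one. SMARCA4 itself had 1, 1, 0 and 2 peaks over the gene and SMARCA2, the other ATPase, 0, 0, 2 and 0, none of them at an end.

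In each translation and growth list the libraries of the antibodies overlapped. Of 79 cytosolic ribosomal protein genes, 2, 13, 4 and 10 had a gene-end peak, with RPL8 called for BRG1 and RPL35 for Flag-actin. Of 73 mitochondrial ribosomal protein genes, 3, 7, 4 and 5 had one, with MRPS23 called for BRG1 and MRPL43 for Flag-actin. Of 49 initiation and elongation factors, 3, 16, 4 and 4 had one, so that BRG1 KO2 alone was high, and PABPC1, which binds poly(A) tails, was called for BRG1. Counts were 0, 4, 0 and 2 of 22 aminoacyl-tRNA synthetases, and 2, 5, 2 and 5 of 51 ribosome biogenesis genes. They were 2, 5, 1 and 6 of 37 cell cycle genes, with AURKB called for BRG1. AURKB, a mitotic kinase, rested on unlike libraries, with 8 peaks over the gene and a rank of 99.97 in KO1, 1 peak of rank 52.63 in KO2 and none in the BRG1 control.

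Marker genes of cell types had few peaks in any of the 4 lists, as had all genes, and peaks are no measure of expression. The share of all genes with a gene-end peak was 4.30%, 12.3%, 4.06% and 8.32% in the KO lists. It was 31.1% in the BRG1 control and 14.7% in the Flag-actin control. Of 12 defining epithelial genes of the colon, 0, 3, 1 and 1 had a gene-end peak, against 9 in the BRG1 control and 1 in the Flag-actin control. The BRG1 control list held 33596 peaks, more than any KO list, and a change from control to KO cells was not tested. In another list of 22 epithelial genes the counts were 0, 2, 1 and 2, with 10 and 0 in the BRG1 and Flag-actin controls. They were 0, 2, 0 and 1 of 25 fibroblast and immune genes, with 1 and 4 in those controls. Of 29 neuron and liver genes they were 0, 3, 0 and 0, with 3 and 8 in the controls.

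**Figure D5:**
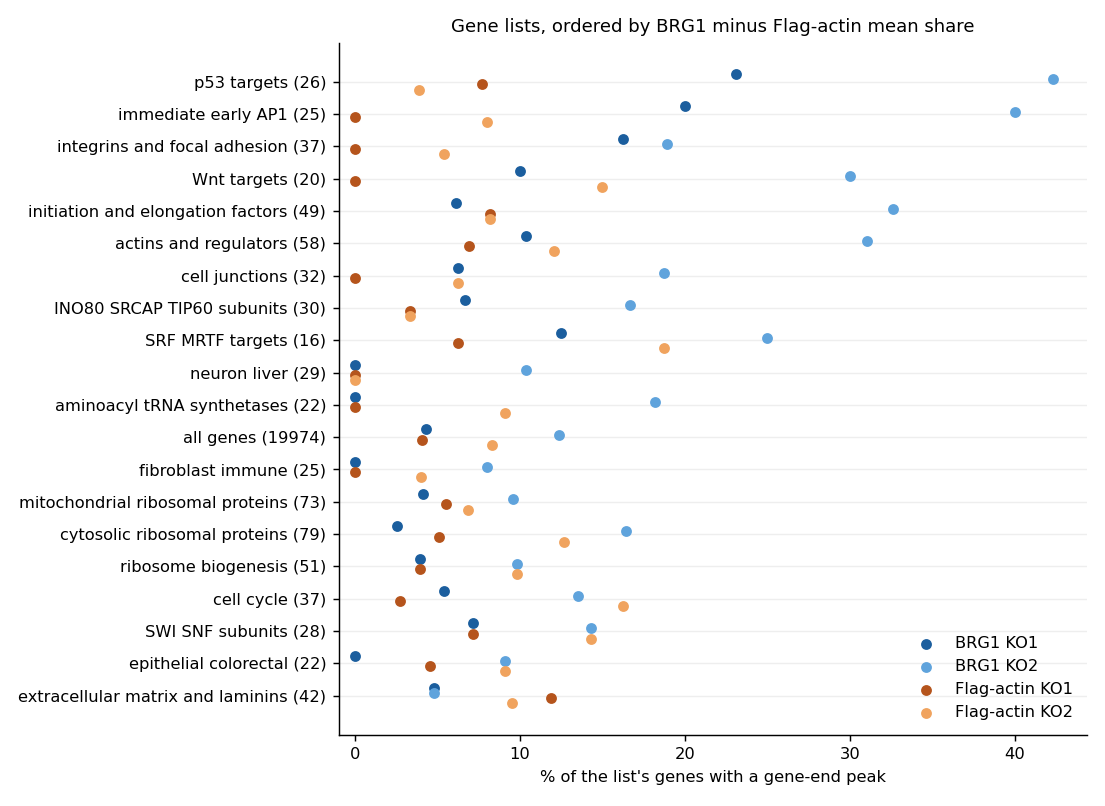
Share of the genes of each list with a gene-end peak (x axis, %), 1 point for each KO library, with the number of genes in brackets and all genes as a row for reference. Lists are ordered by the BRG1 mean minus the Flag-actin mean, from p53 targets (6, 11, 2 and 1 of 26 genes) at the top to extracellular matrix and laminins (2, 2, 5 and 4 of 42) at the bottom.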

How the data were processed

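CUT&RUN peak lists of 8 libraries were used. The submitters' processing notes give hg38 as the build. They name SEACR and MACS2, BWA, Trim Galore 0.4.5 and FastQC 0.12.0, SAMtools, bedtools 2.30.0 and deepTools, without settings. The deposited lists hold, per library, the total and maximum signal of each peak, in the layout of SEACR. How the authors scaled that signal is not stated in the sources used here, so signal served to rank peaks within a list. File names carry thresholds of 0.01 for antibody and 0.005 for IgG lists.

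Overlaps (1 bp or more), merged regions, exact permutation tests over libraries and exact 95% intervals came from Python 3.11.15, with scipy 1.17.1, pandas 2.3.3 and numpy 2.4.6. On simulated data the overlap code gave 0 disagreements with bedtools 2.31.1 over 97310 intervals. Genes and promoters came from RefSeq on GRCh38.p14. Named regions were the 10 of highest mean rank in each class, overall and at gene ends, with up to 4 called genes per list and 10 fixed genes. Printed promoters had no other annotated start whose first 300 bases reached them. All 701 list entries matched a symbol. The members, gene lists and comparisons were chosen with earlier results of these data known, and the CCAAT and start side comparisons were added after the data were seen.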

Additional observations from a re-analysis of the deposited data

Results flagged for a closer look

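In 2 measures of location, after removal of IgG sites, the difference between the antibodies pointed one way between KO libraries of the same number. It pointed the other way in control cells. BRG1 minus Flag-actin in the share of peaks outside genes was -4.02 percentage points for KO1 and -3.52 for KO2, and 2.48 in control cells. For the share of peaks over 100 kb from the transcription starts used here it was -1.86 for KO1 and -1.32 for KO2, and 2.91 in control cells. Those starts do not cover all genes. The numbers were not shown to pair the libraries. Without pairing, the antibodies overlapped in the share over 100 kb, with 16.1% and 13.3% for BRG1 against 18.0% and 14.7% for Flag-actin (two-sided exact permutation p = 0.667). With IgG sites kept, the KO share over 100 kb was 22.5% and 20.2% for BRG1 against 20.3% and 18.7% for Flag-actin. BRG1 was then the higher for KO1 and for KO2, as in the filtered control lists. The share outside genes was 47.6% and 45.3% against 47.8% and 45.4%, nearly equal. Control shares with IgG sites kept were not computed. With 1 control library for each antibody, the difference between KO and control cells was not tested.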

How the results depend on the processing

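The direction of the differences in gene-end share, share near chromosome ends, start side share, CCAAT share and overlap within antibodies was kept under each alternative run. With a library left out, values were computed without a test. Under the alternatives the gene-end difference ranged from 2.01 to 10.8 percentage points, the chromosome-end difference from -8.99 to -4.11, the start side difference from 16.3 to 25.8, the CCAAT difference from 16.9 to 28.1 and the overlap difference from 0.780 to 8.93. Median width had no stable direction. Its difference of -15 bp became 10 bp when each list was reduced to its stronger peaks, those above its median rank, and 0 bp without peaks of 50 bp or less, and ranged from -40 to 10 bp with 1 library left out.

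The counts depended on the settings. With IgG sites kept, 4015 regions had BRG1 alone in both libraries, 1488 had Flag-actin alone and 11055 were in all 4 lists, as were 422 genes. At equal list length, the counts were 28 genes and 236 regions for Flag-actin, and 2 genes and 12 regions in all 4 lists. With only the stronger peaks of each list, there were 149 genes and 928 regions for BRG1, 37 genes and 290 regions for Flag-actin, and 1 gene and 10 regions in all 4. Without peaks of 50 bp or less, 174 Flag-actin regions and 2 regions in all 4 lists were left. With gene ends of 3 kb, Flag-actin had 317 genes and all 4 lists shared 30. Over whole genes, the counts were 541 for BRG1, 962 for Flag-actin and 731 in all 4, so the order of the antibodies turned, and BRG1 was higher in 8 gene lists. The cause was not tested.

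Leaving out 1 library asks less of a call, so counts rise by construction. Genes ranged from 328 to 2106 for BRG1, from 106 to 1353 for Flag-actin and from 8 to 42 for all lists. Regions ranged from 1678 to 12135 for BRG1, from 519 to 17892 for Flag-actin and from 57 to 125 for all lists. Gene lists higher for BRG1 ranged from 7 (without BRG1 KO2) to 18 (without BRG1 KO1), and numbered 9 without Flag-actin KO1.

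With the library number as a replicate block, the differences were as before, at 7.50 points for gene ends, -6.65 near chromosome ends, 23.0 for CCAAT, 24.0 for the start side and -15 bp for width. The smallest p of an exact sign-flip test over 2 pairs is 0.5. The KO1 minus KO2 deviations of the antibodies correlated with r = 0.0661 over 824 regions and 0.0155 over 19974 genes, so the numbers were not shown to pair the libraries. A blocked value of the overlap difference was not run.

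Read depth is unknown, and a missing peak does not show that a protein is absent. With 2 libraries against 2, p-values could not pass 0.05 whatever the difference.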
